A study of Mus musculus with 5 samples.

Results

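The mitochondrial SLC25 carriers were taken as the protein-coding mouse genes whose symbol begins with Slc25a, and 46 of them are described here, of 49342 annotated genes with a value. Their transcript levels were measured by single-read 75 bp RNA sequencing of bone marrow-derived macrophages from wild-type C57BL/6 mice. All cells had been differentiated for 6 days with CSF1 or with L929 supernatant, and all received 10 ng/ml IL-4, the cytokine that drives alternative macrophage activation, for 24 h. Before IL-4, the cells of 3 libraries (replicates 3, 4 and 5) were given 30 µM CBR-5884, an inhibitor of PHGDH, the first enzyme of the serine synthesis pathway, and those of 2 libraries (replicates 3 and 5) solvent. No library without IL-4 was analysed here, so each difference below is one between inhibitor and solvent in IL-4-treated cells. The labels do not say whether the replicates came from separate mice, so the p-values measure only the spread between these libraries, which may be technical.

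SLC25 carriers are small nuclear-encoded proteins, almost all of the mitochondrial inner membrane. They exchange nucleotides, phosphate, Krebs cycle acids, amino acids, cofactors and acylcarnitines between the cytosol and the matrix. The adenine nucleotide translocases export ATP for ADP, the phosphate carrier supplies the ATP synthase, and the citrate and aspartate/glutamate carriers link the matrix to cytosolic lipid synthesis and to the redox shuttles. In IL-4-activated macrophages, oxidative phosphorylation and fatty acid oxidation are known to be prominent, and both run through carriers of this family.

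The adenine nucleotide translocases show the range of levels among the 46 carriers. Slc25a5 (ANT2) was the most abundant of them, Slc25a4 (ANT1) the fourth and Slc25a31 (ANT4, known as the germ cell form) close to 0. The 250 bases upstream of each RefSeq gene start (build GRCm38.p6) are given for these 3 genes. They are at chrX:36795347-36795596 on the plus strand for Slc25a5, at chr8:46211063-46211312 on the minus strand for Slc25a4 and at chr3:40708621-40708870 on the plus strand for Slc25a31. Capitals mark matches, on either strand, to CCGGAAG (an ETS or GABP motif), GCGCATGC (an NRF1 motif) and GGGCGG (a GC box), the binding motifs of factors known from promoters of mitochondrial genes. 
Slc25a5: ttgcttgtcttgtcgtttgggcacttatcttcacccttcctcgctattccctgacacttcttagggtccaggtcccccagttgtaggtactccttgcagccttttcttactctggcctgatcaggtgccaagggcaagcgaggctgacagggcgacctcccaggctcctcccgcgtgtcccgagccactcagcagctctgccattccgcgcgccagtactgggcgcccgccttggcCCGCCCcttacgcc
Slc25a4: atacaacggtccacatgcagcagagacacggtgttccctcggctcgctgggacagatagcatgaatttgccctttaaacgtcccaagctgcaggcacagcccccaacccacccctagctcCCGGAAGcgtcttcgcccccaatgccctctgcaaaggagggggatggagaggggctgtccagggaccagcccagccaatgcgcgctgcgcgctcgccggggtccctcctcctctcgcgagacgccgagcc
Slc25a31: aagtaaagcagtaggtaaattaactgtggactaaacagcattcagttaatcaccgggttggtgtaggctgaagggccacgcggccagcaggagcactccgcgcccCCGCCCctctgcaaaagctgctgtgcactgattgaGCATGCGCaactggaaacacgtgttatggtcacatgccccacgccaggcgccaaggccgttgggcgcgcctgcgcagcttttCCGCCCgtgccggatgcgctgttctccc
The Slc25a5 window holds a GC box, the Slc25a4 window the ETS motif, and the Slc25a31 window the NRF1 motif and GC boxes. Of the Slc25a4 window, 222 of the 250 bases lie inside the gene as annotated for the counts, which starts upstream of the RefSeq start, and the marked ETS motif is among them. For Slc25a31 this holds for the last 16 bases and for Slc25a5 for none. Of the 46 carriers, 36 had such a window, 18 of them with bases inside the annotated gene. GC boxes were in 24 of the 36 (66.7%), against 44.5% of 16518 protein-coding promoters. The ETS motif was in 6 (16.7%, against 9.5%) and the NRF1 motif in 2 (5.6%, against 3.1%). The carrier windows also held more CpG, at a median of 13 against 10, and the part of base composition in the motif counts was not tested. Among the 26 windows of carriers with a mean level of at least 1 FPKM, 18 held a GC box, 5 the ETS motif and none the NRF1 motif. Among the 10 windows of carriers below it, the counts were 6, 1 and 2. These matches are descriptions of sequence and were not tested against the levels.

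Levels are in FPKM, fragments scaled to transcript length and to the mapped fragments of the library, as the authors' Cufflinks runs estimated them, summed here over the transcripts of a gene. With this unit the levels of different genes can be set side by side. The sequencing depth implied by the files was 28310000 to 30700000 fragments per library. Transcripts of the mitochondrial chromosome were listed only for solvent replicate 5, which had 37 of them, and their effect on the levels was not tested. Log2 levels correlated across genes at Pearson's r 0.925 to 0.937 within groups and 0.911 to 0.928 between them. Transcripts assigned to no annotated gene, whether assembled or reference, held between 64.0% and 70.3% of each library's FPKM. They held only 8.6% to 10.2% of its covered bases.

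Of the 46 carriers, 33 had a mean of at least 1 FPKM over the 5 libraries. Slc25a33, Slc25a42, Slc25a47, Slc25a27, Slc25a29, Slc25a18 and Slc25a2 were below 1 but above 0 in every library. Slc25a34, Slc25a31 and Slc25a54 were above 0 in some libraries only, and Slc25a21, Slc25a41 and Slc25a48 were listed at 0 in all 5. A listed 0 in Cufflinks output can be a failed estimate, so it is not proof that the transcript was absent. The limit of 1 FPKM fell between Slc25a43 at a mean of 1.36 and Slc25a23 at 2.03 on the upper side, and Slc25a33 at 0.976 and Slc25a42 at 0.694 on the lower side.

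**Figure D1:**
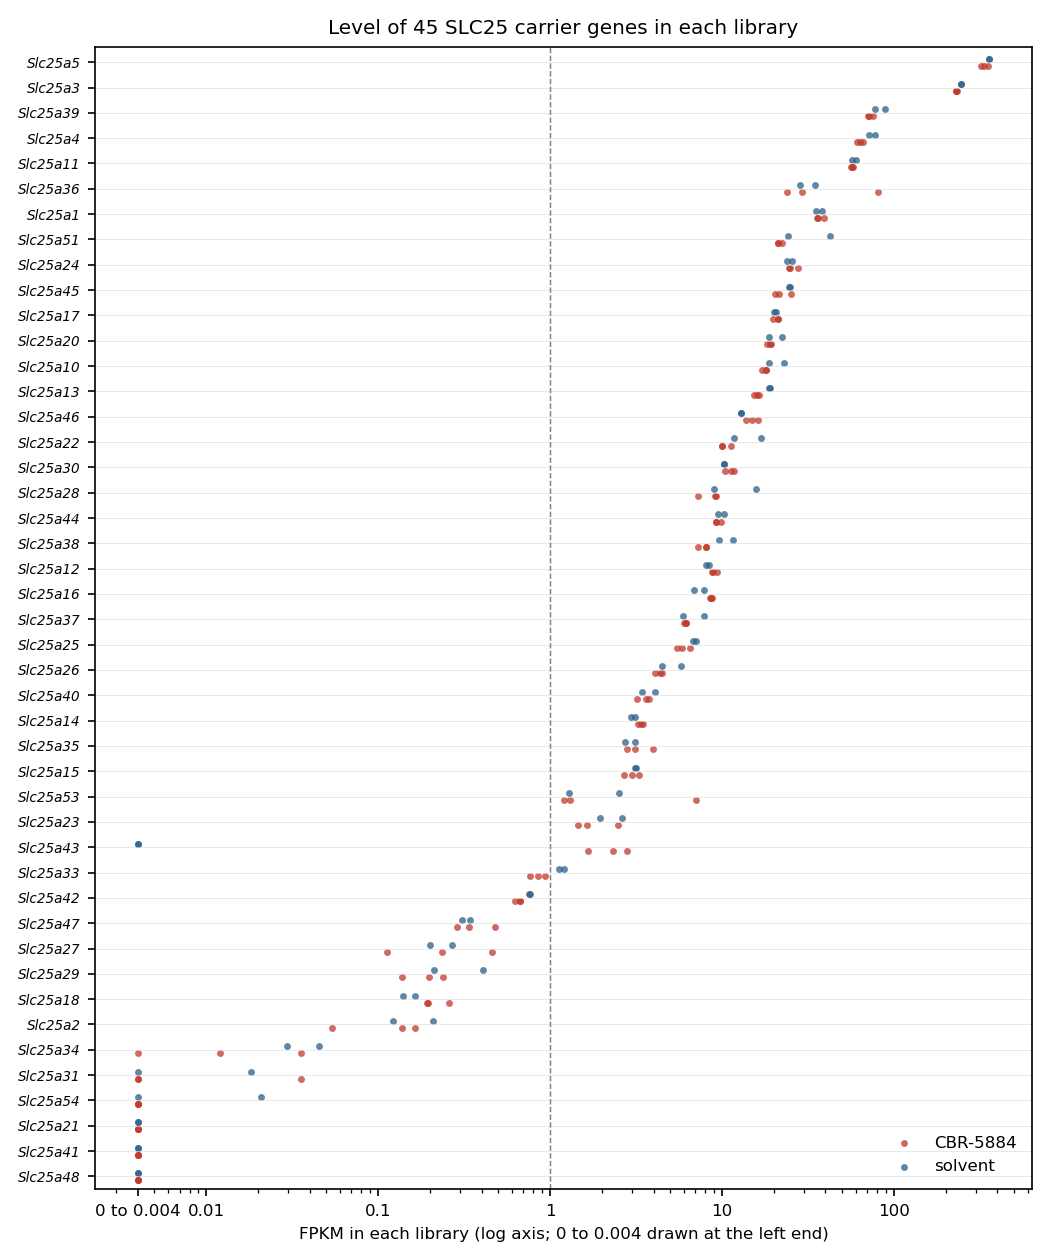
FPKM of 45 SLC25 carrier genes (rows, ordered by mean) in each of 3 CBR-5884 libraries (red) and 2 solvent libraries (blue), on a log axis with values of 0 drawn at the left end and a dashed line at 1 FPKM. Slc25a5 and Slc25a3 lie at 230.9 FPKM or more in every library, 32 of the drawn carriers have a mean of at least 1, and Slc25a43 is the only one of these 32 listed at 0 in a library.

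The transcript pool of the 46 carriers was dominated by 2 genes. Slc25a5 and Slc25a3, the phosphate carrier, together made up 49.4%, 52.7% and 51.3% of the summed FPKM of all 46 carriers with CBR-5884 and 51% and 50.8% with solvent. That sum was 1145, 1111 and 1085 FPKM with CBR-5884 and 1185 and 1184 with solvent, so the inhibitor-treated libraries lay below both solvent libraries. Without single-exon assembled fragments, which are described with the genes they affect, it was 1076, 1097 and 1079 against 1154 and 1145, again without overlap. In bulk RNA, fewer cells of a type and less RNA per cell cannot be told apart.

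No carrier passed the test between CBR-5884 and solvent. Among the 33 carriers tested with limma on log2(FPKM + 1), 0 had an adjusted p below 0.05, where 24 of the 10769 genes tested did (0.223%; 5 higher, 0.0464%, and 19 lower, 0.176%). With no adjustment, 6 carriers (18.2%) had a limma p below 0.05, against 19.6% of all genes. Of these, 2 were higher with CBR-5884 (7.24% of all genes) and 4 lower (12.4%). Fold changes were negative for 21 carriers and positive for 12, with a median log2 fold change of -0.08, while 55.7% of all genes were negative and 44.3% positive with a median of -0.03. Every CBR-5884 library was below both solvent libraries for 11 carriers (33.3%), against 24.9% of all genes. For 6 carriers (18.2%) every one was above, against 16.6% of all genes. Slc25a43 passed the filter on low values only through the CBR-5884 libraries, and without it the median over 32 carriers was -0.08, with 5 above (15.6%) and 11 below. The count of unadjusted p below 0.05 was then 5 of 32 (15.6%), 1 higher and 4 lower.

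The fold changes were small. Of the 33, 31 had a log2 fold change of less than 0.5 in size, and for 23 (69.7%, against 61.8% of all genes) the whole 95% confidence interval lay within 0.5 of 0. The rest had intervals that reach past that size, so a change of 0.5 was not excluded for them. Leaving out solvent replicate 3 took Slc25a51 to a log2 fold change of -0.94. The solvent group was then replicate 5 alone, so the spread came from the CBR-5884 libraries and the lone library was assumed to vary like them. In that library, 40% of the gene's value lay in single-exon assembled fragments.

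**Figure D2:**
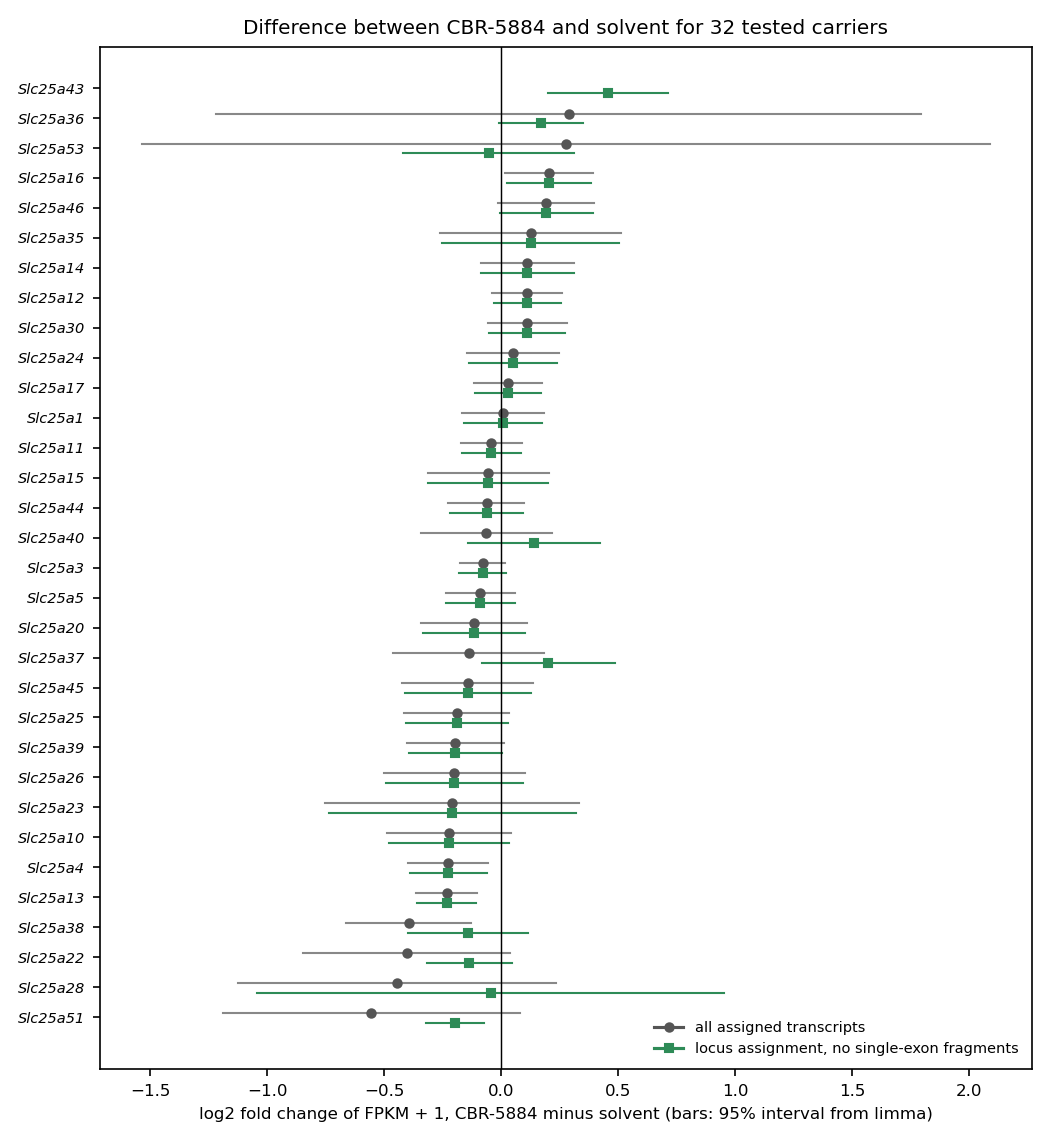
Log2 fold change of FPKM + 1 (CBR-5884 minus solvent, 3 against 2 libraries) with the 95% limma interval for 32 tested carriers. Grey circles use all assigned transcripts and green squares leave out single-exon assembled fragments and add transcripts assigned through their locus; no grey value is drawn for Slc25a43, which is listed at 0 in both solvent libraries. The green values span -0.23 to 0.46, the latter for Slc25a43 and still resting on the listed zeros of its reference transcript. The wide grey intervals of Slc25a36 and Slc25a53 have narrow green counterparts.

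Nucleotide, phosphate and cofactor carriers were the largest class, with 16 members and 12 tested, of which 4 had positive and 8 negative fold changes (median log2 -0.11). Slc25a5 measured 335, 355 and 322 FPKM after CBR-5884 and 359.5 and 357 after solvent. The inhibitor libraries were the lower ones without overlap, and the log2 fold change was -0.09 ± 0.06 (SE), at a limma adjusted p = 0.433. Slc25a3 was at 231, 231 and 234 FPKM against 246 and 244. These groups did not overlap either, at a log2 fold change of -0.08 ± 0.04 (SE; limma, adjusted p = 0.328).

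Slc25a4 measured 61.0, 63.2 and 66.3 FPKM after CBR-5884 and 71.2 and 77.7 after solvent. All 3 inhibitor libraries were lower, with a log2 fold change of -0.22 ± 0.06 (SE) and a 95% interval of -0.40 to -0.05 (limma, adjusted p = 0.186). The ratio of ANT2 to ANT1 transcripts was 5.48, 5.61 and 4.85 with CBR-5884 and 5.05 and 4.6 with solvent, so the ratios of the groups overlapped. Slc25a31 was above 0 only in CBR-5884 replicate 4 (0.0357 FPKM) and solvent replicate 5 (0.0183 FPKM).

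Slc25a3 is known for alternative exons that give heart-type and ubiquitous forms of the protein. Its transcript ENSMUST00000076694 measured 122, 130 and 126 FPKM after CBR-5884 and 139 and 111 after solvent. ENSMUST00000164505 was at 77.5, 101 and 108 against 107 and 102. ENSMUST00000170810 was at 31.4 in CBR-5884 replicate 3 and 31.7 in solvent replicate 5 and was not among the transcripts above 0 in the other libraries. The transcript levels thus differed between replicates of a group by more than the gene's total did.

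Among cofactor carriers, Slc25a16, linked to coenzyme A supply, measured 8.78, 8.52 and 8.68 FPKM after CBR-5884 and 6.91 and 7.88 after solvent. All inhibitor libraries were above the solvent ones (0.20 ± 0.07 SE in log2 fold change; adjusted p = 0.23 by limma), and 0.12 without solvent replicate 3.

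Slc25a25, a calcium-regulated ATP-Mg/phosphate carrier, measured 5.48, 5.88 and 6.53 FPKM after CBR-5884 and 7.07 and 6.79 after solvent. The groups did not overlap (-0.19 ± 0.08 SE in log2 fold change; adjusted p = 0.31 by limma). Its relatives of the same function, Slc25a24 and Slc25a23, overlapped between groups, at means of 25.6 and 1.86 FPKM with CBR-5884 and 24.7 and 2.29 with solvent. Slc25a41, the fourth of that type, was listed at 0. Slc25a17, the peroxisomal member that carries coenzyme A and related cofactors, was at 20.7 ± 0.84 FPKM (SD, n = 3) against 20.3 ± 0.401 (SD, n = 2). Slc25a26, which brings S-adenosylmethionine into the matrix, was at 4.31 ± 0.213 (SD, n = 3) against 5.13 ± 0.907 (SD, n = 2), with overlap.

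The pyrimidine nucleotide carriers Slc25a33 and Slc25a36 and the coenzyme A carrier Slc25a42 complete the class together with the NAD carrier Slc25a51. Slc25a33 was too low to be tested, at 0.937, 0.855 and 0.762 FPKM with CBR-5884 and 1.12 and 1.2 with solvent. Slc25a42 was at 0.664, 0.668 and 0.622 against 0.761 and 0.754. In both genes the CBR-5884 libraries were below the solvent libraries.

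Of the 4 di- and tricarboxylate carriers 3 were tested, with a median log2 fold change of -0.04. Slc25a11, the oxoglutarate carrier of the malate-aspartate shuttle, measured 56.8, 57.8 and 56.1 FPKM after CBR-5884 and 60.4 and 56.7 after solvent. Slc25a1, the citrate carrier, was at 35.98, 39.04 and 35.85 against 38.1 and 35.33. Both overlapped between groups, with log2 fold changes of -0.04 (95% interval -0.17 to 0.09; limma, adjusted p = 0.675) and 0.01 (-0.16 to 0.18; limma, adjusted p = 0.946). Slc25a10, the dicarboxylate carrier, was at 18.04, 17 and 18.08 FPKM against 23.1 and 18.8. Its inhibitor libraries lay below both solvent libraries, which differed from each other by more than the groups' nearest values did (-0.22 ± 0.10 SE in log2 fold change; adjusted p = 0.316 by limma). It was -0.08 without solvent replicate 3 and -0.36 without solvent replicate 5. Slc25a21, the oxodicarboxylate carrier, was listed at 0.

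Amino acid carriers had 9 members, 6 of them tested, with 5 negative fold changes and a median log2 value of -0.15. Slc25a13 (citrin), an aspartate/glutamate carrier, measured 16.4, 15.4 and 15.9 FPKM after CBR-5884 and 18.7 and 19.1 after solvent. It had the smallest p of the carriers above 0 in all libraries, with a log2 fold change of -0.23 ± 0.05 (SE), a 95% interval of -0.36 to -0.10 and a limma adjusted p = 0.139. Its paralog Slc25a12 (aralar) lay the other way without overlap, at 9.01 ± 0.347 FPKM (SD, n = 3) against 8.25 ± 0.196 (SD, n = 2), a log2 fold change of 0.11. The difference between the 2 paralogs was not tested.

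Slc25a38, the glycine carrier needed for haem synthesis, measured 7.28, 8.03 and 8.04 FPKM after CBR-5884 and 9.56 and 11.6 after solvent. The groups did not overlap (-0.40 ± 0.10 SE in log2 fold change; adjusted p = 0.167 by limma). Slc25a22, a glutamate carrier, was at 10.0, 11.2 and 9.96 against 11.7 and 16.9, also without overlap (-0.40 ± 0.17 SE in log2 fold change; adjusted p = 0.287 by limma). In both genes, part of the higher value in solvent replicate 5 came from single-exon assembled fragments. Without these fragments solvent replicate 5 was at 7.86 for Slc25a38 and 11.3 for Slc25a22, and the log2 fold changes were -0.14 for each (limma, adjusted p = 0.457 and 0.342).

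The other amino acid carriers were low or overlapped. Slc25a44, which carries branched-chain amino acids, was at 9.41 ± 0.351 FPKM (SD, n = 3) against 9.88 ± 0.519 (SD, n = 2). Slc25a15, the ornithine carrier of the urea cycle, was at 3 ± 0.306 (SD, n = 3) against 3.14 ± 0.0309 (SD, n = 2). Its close paralog Slc25a2, the basic amino acid carrier Slc25a29 and the second glutamate carrier Slc25a18 had means under 0.4 FPKM in both groups. Slc25a20, the carnitine/acylcarnitine carrier through which long-chain fatty acids enter for oxidation, was at 18.8 ± 0.494 FPKM (SD, n = 3) against 20.6 ± 2.47 (SD, n = 2), with overlap.

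Of the iron and glutathione carriers, Slc25a39, which imports glutathione, was the third most abundant of the carriers described here. It measured 70.6, 71.2 and 76.1 FPKM after CBR-5884 and 89.0 and 77.9 after solvent. The inhibitor libraries were the lower ones, with the nearest libraries of the groups 76.1 and 77.9 (-0.19 ± 0.08 SE in log2 fold change; adjusted p = 0.276 by limma). Its paralog Slc25a40 was at means of 3.53 and 3.74, and the iron carriers mitoferrin 1 (Slc25a37) and mitoferrin 2 (Slc25a28) at 6.12 and 6.91 and at 8.51 and 12.3. All 4 had negative fold changes with every assigned transcript counted, and 2 of the 4, Slc25a37 and Slc25a40, had positive ones (0.20 and 0.14) without single-exon fragments. The value of Slc25a28 rested on solvent replicate 3, at 15.7 FPKM with 79% in such fragments. Its log2 fold change was -0.44 with them (-0.07 without that library and -0.82 without solvent replicate 5) and -0.04 without them, with a 95% interval of -1.04 to 0.95 and means of 5.38 and 6.12. Leaving out solvent replicate 3 took Slc25a39 to -0.10.

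The uncoupling protein relatives Slc25a14 and Slc25a30 were both higher with CBR-5884 in every library, at 3.36 ± 0.11 against 3.04 ± 0.13 FPKM and at 11.1 ± 0.634 against 10.2 ± 0.00633 (SD, n = 3 and 2). Their log2 fold changes were 0.11 each, and neither passed the test. In CBR-5884 replicates 3 and 5, most or all of the Slc25a14 value was an assembled transcript of 1326 bases. The other libraries had only the reference transcript of 1516 bases. With reference transcripts only, the log2 fold change of Slc25a14 was -1.185, with overlap. Slc25a27 was below 0.5 FPKM in every library.

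Among carriers for which no substrate is named here, Slc25a46, an outer membrane member known for its part in mitochondrial fission and lipid transfer, was at 16.2, 14.9 and 13.9 FPKM with CBR-5884. With solvent it was at 12.96 and 12.99, below all 3 (0.19 ± 0.08 SE in log2 fold change; adjusted p = 0.28 by limma). Slc25a45 was at 22.4 ± 2.65 FPKM (SD, n = 3) against 24.7 ± 0.152 (SD, n = 2), and Slc25a35 at 3.29 ± 0.603 against 2.92 ± 0.273. Both overlapped. Slc25a47, Slc25a34, Slc25a54 and Slc25a48 were too low to be tested, and Slc25a54 was listed at 0 in all CBR-5884 libraries and at 0.021 FPKM in solvent replicate 3 alone.

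**Figure D3:**
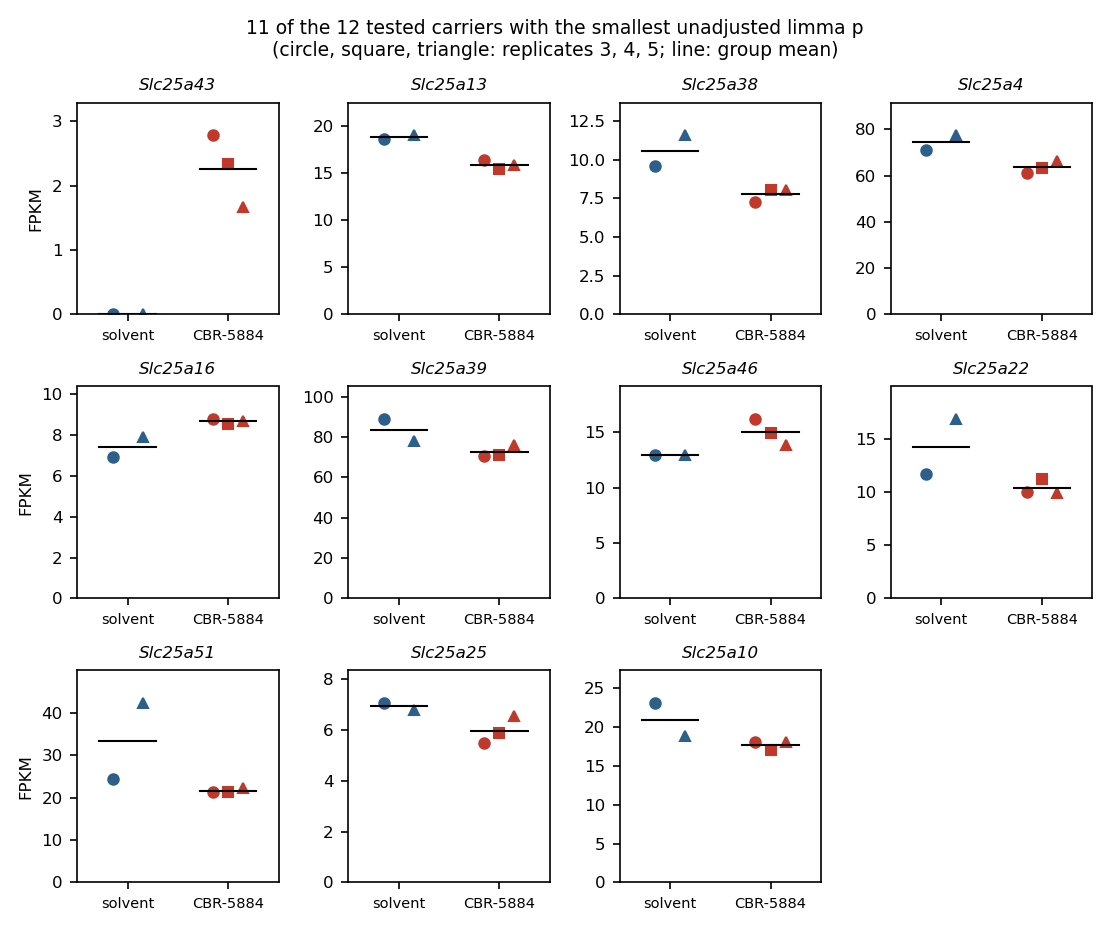
FPKM per library (circle, square and triangle for replicates 3, 4 and 5) with the group mean as a line, for 11 of the 12 tested carriers with the smallest unadjusted limma p; every axis starts at 0. The carriers were picked by their p in these same libraries, so the lack of overlap in all 11 panels follows largely from that choice. Over all genes tested, every CBR-5884 library was below both solvent libraries for 24.9% and above both for 16.6%. Without single-exon fragments the groups of Slc25a38 overlapped. Slc25a43, Slc25a16 and Slc25a46 are higher with CBR-5884 (the solvent values of Slc25a43 are listed zeros), and none of the 11 passed the adjusted threshold.

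The remaining carriers with large differences were those whose transcripts Cufflinks had assembled differently between libraries. Among transcripts assigned by exon overlap, 11 of the 33 tested carriers had reference transcripts alone, 22 had an assembled part in at least 1 library, and 8 had a part made of single-exon assembled fragments. The 11 include Slc25a43, which also had a longer assembled transcript that was not assigned in this way and is described below. For Slc25a36, 79.3% of the 80.8 FPKM of CBR-5884 replicate 3 lay in single-exon fragments, whose short length gives few reads a high FPKM. The other libraries were at 29.1 and 24.0 with CBR-5884 and 34.5 and 28.4 with solvent. With these fragments left out it was at 16.8, 15.2 and 15.2 against 13.3 and 14.4, and the log2 fold change went from 0.29 ± 0.57 to 0.17 ± 0.07 (SE; limma, adjusted p = 0.802 and 0.256). Slc25a53 had 5.58 of its 7.1 FPKM in CBR-5884 replicate 3 in a single fragment of 295 bases, and its log2 fold change went from 0.28 to -0.05 without single-exon fragments.

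Slc25a51 imports NAD into mitochondria. It measured 21.3, 21.2 and 22.2 FPKM after CBR-5884 and 24.4 and 42.3 after solvent. The difference rested on solvent replicate 5, in which 40% of the value lay in single-exon fragments, and the log2 fold change was -0.56 ± 0.24 (SE), at a limma adjusted p = 0.301. Without the fragments the solvent libraries were at 24.4 and 25.4 and the log2 fold change was -0.20 ± 0.05 (SE), at a limma adjusted p = 0.138. In the CBR-5884 libraries all of it was the reference transcript, which was at 12.8 and 14.5 FPKM in the solvent libraries beside an assembled form at 11.6 and 10.9. The reference transcript alone therefore gave the opposite direction, with a log2 fold change of 0.63.

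Slc25a43, a carrier without a settled substrate, lies on chromosome X from 36743659 to 36777202 (GRCm38, plus strand). Its value was 2.79, 2.33 and 1.66 FPKM with CBR-5884, and it was listed at 0 in both solvent libraries. No fold change or p is given against a group at 0, since the filter on low values was passed through the other group alone. All of that value was the reference transcript ENSMUST00000047655, of 1111 bases in 5 exons. In all 5 libraries Cufflinks also assembled a transcript of 2994 to 3343 bases with the same start and 5 exons. It ran past the annotated 3′ end to positions 36779085 to 36779434 and lay mostly outside annotated exons, and so was not assigned to the gene by exon overlap.

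This longer transcript measured 3.92, 4.47 and 4.0 FPKM after CBR-5884 and 4.16 and 4.59 after solvent, with overlap. The gene was therefore detected in every library. With both forms summed it was at 6.71, 6.8 and 5.66 FPKM against 4.16 and 4.59, without overlap (0.46 ± 0.10 SE in log2 fold change, adjusted p = 0.12 by limma). That separation still rested on the reference transcript, listed at 0 in both solvent libraries, and a listed 0 can be a failed estimate. Slc25a43 was the only tested carrier with a transcript of this kind.

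**Figure D4:**
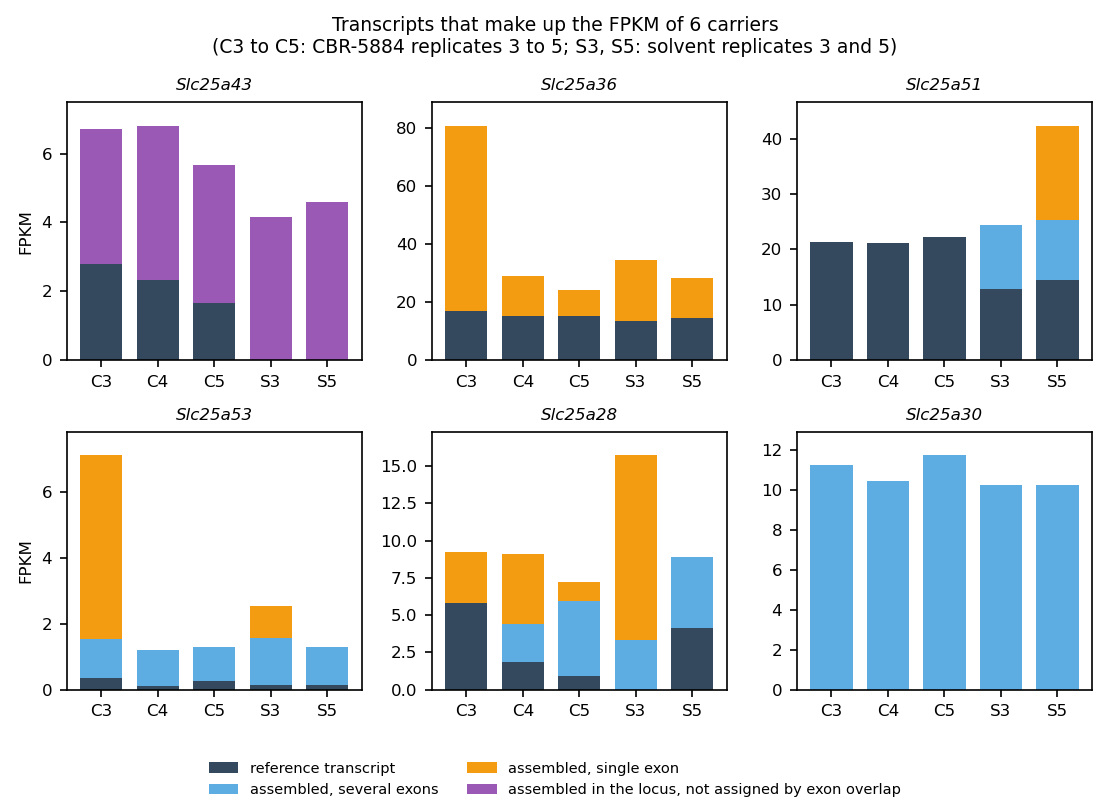
Stacked FPKM of reference transcripts, assembled transcripts with several exons, single-exon assembled fragments and, for Slc25a43, an assembled transcript not assigned by exon overlap, in CBR-5884 (C3 to C5) and solvent (S3, S5) libraries for 6 carriers. The single-exon part makes the highest bars of Slc25a36, Slc25a51, Slc25a53 and Slc25a28, Slc25a30 consists of assembled transcripts in every library, and Slc25a43 has its longer transcript in all 5.

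When single-exon fragments were left out and transcripts were also assigned through their locus, a choice made after seeing the data, 0 of 33 carriers passed (limma, smallest adjusted p = 0.115), against 0.357% of 10654 genes. With no adjustment, 6 carriers (18.2%, against 21% of genes) had a limma p below 0.05, 2 of them higher (7.8% of genes) and 4 lower (13.2%). The log2 fold changes then ran from -0.23 to 0.46 with a median of -0.05, 20 negative and 13 positive, where 56.1% of genes were negative. The value of 0.46 was that of Slc25a43, whose reference transcript was listed at 0 in both solvent libraries. The CBR-5884 libraries were above both solvent libraries for 8 carriers (24.2%, against 17.1% of genes) and below both for 10 (30.3%, against 25.6%). The 95% interval lay within 0.5 of 0 for 29 carriers (87.9%, against 67.4%).

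Some values share reads with other features. Slc25a5 has a near-identical annotated pseudogene copy over 887 bases and Slc25a36 one over 544, and Slc25a40 has one over 362, so their estimates depend on how such reads were placed. Slc25a37 shares 342 bases at 100% identity with the protein-coding Gm16867, and stretches of Slc25a20 (up to 366 bases) and Slc25a51 (up to 136) recur in 22 and 34 other annotated genes. Slc25a35 overlaps the antisense gene Rangrf over 1151 bases. The library kit marks strand, but whether the counting used it is not given in the sources used here.

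Genes that work beside the carriers also gave no call. In 9 neighbouring lists, 48 of 57 genes were tested, 0 passed, 17 had positive and 31 negative fold changes (median log2 -0.10), and 3 (6.25%) had an unadjusted limma p below 0.05. Over all genes tested these shares were 0.223% called, 55.7% negative and 19.6% below 0.05. Ucp2, a member of the carrier superfamily with another symbol, was more abundant than any carrier described above. It measured 613, 768 and 577 FPKM after CBR-5884 and 678 and 936 after solvent, with overlap (log2 fold change -0.30, limma, adjusted p = 0.454). Mtch1 and Mtch2, outer membrane relatives with a part in inserting proteins there, overlapped too, at means of 73.3 and 39.8 against 86.2 and 31.8. The mitochondrial pyruvate carrier subunits Mpc1 and Mpc2, which belong to another family, were at means of 85.0 and 35.1 against 80.0 and 34.6.

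The TIM22 route inserts SLC25 carriers into the inner membrane, and 10 of its 13 tested genes had negative fold changes (median log2 -0.12). Without single-exon fragments it was 9 of 13, as Timm9, named after its values were seen, went from -0.15 to 0.49 (limma, adjusted p = 0.731 and 0.111). Timm22, its channel subunit, measured 11.3, 12.03 and 12.39 FPKM after CBR-5884 and 14.2 and 14.5 after solvent, without overlap (-0.25 ± 0.06 SE in log2 fold change; adjusted p = 0.15 by limma). Timm8b, a chaperone of the intermembrane space, lay above without overlap at 51.5, 53.7 and 50.4 against 47.0 and 45.6 (limma, adjusted p = 0.206). Of the calcium uniporter genes 7 of 8 were negative (median log2 -0.18), with the smallest p for Smdt1, a regulatory subunit (log2 fold change -0.34; limma, adjusted p = 0.288), and Slc8b1, the sodium/calcium exchanger (-0.25; limma, adjusted p = 0.374). Of 8 tested regulators of mitochondrial biogenesis 4 were negative, with the smallest p for Esrra, a nuclear receptor (-0.61, limma, adjusted p = 0.232, and -0.24 without single-exon fragments), and Tfb2m, a mitochondrial transcription factor (0.12; limma, adjusted p = 0.346). Ppargc1b, a coactivator of such genes, was listed at 0 in these sums and so not tested. With transcripts assigned through their locus and no single-exon fragments it was at means of 5.14 and 7.01 FPKM, a log2 fold change of -0.39 beside Esrra's -0.24 (limma, adjusted p = 0.111 for both).

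Sideroflexins, which include the mitochondrial serine transporter Sfxn1, had 3 of 4 tested members negative. The smallest p were those of Sfxn2 (log2 fold change -0.51, limma, adjusted p = 0.266, and -0.08 without single-exon fragments) and Sfxn5 (-0.37; limma, adjusted p = 0.432). Sfxn1, named for its known role after its values were seen, measured 10.7, 10.3 and 11.4 FPKM after CBR-5884 and 10.7 and 11.2 after solvent, with overlap. Its 95% interval was -0.18 to 0.14. Of the fatty acid entry genes 2 of 3 were positive, with the smallest p for Cpt1a (0.15; limma, adjusted p = 0.352) and Acsl1 (0.12; limma, adjusted p = 0.416). Of 3 ABC transporters 2 were negative, led by Abcb8 (-0.15; limma, adjusted p = 0.33). Of 4 outer membrane channel genes 2 were negative, among them Tspo (-0.18; limma, adjusted p = 0.368) and Vdac1 (-0.13; limma, adjusted p = 0.46).

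By the labels, 96% of the cells carried F4/80 and CD11b. All 10 macrophage markers were tested, and 0 passed, with 4 positive and 6 negative fold changes. Every CBR-5884 library was below both solvent libraries for 4 of them (24.9% of all genes) and above both for 2 (16.6%). Their sums were 9928 to 13300 FPKM against 11270 to 13330, mostly from Lyz2 at 6964 to 10380. Of 8 proliferation markers, all with negative fold changes, 1 was called lower (Ube2c, limma, adjusted p = 0.0408), where 0.176% of all genes were. Without single-exon fragments 3 were called, Ube2c, Mcm2 and Mcm5 (limma, adjusted p = 0.029, 0.0359 and 0.0477), where 0.357% of genes were called in either direction. For 6 of the 8 every CBR-5884 library was below both solvent libraries, against 24.9% of all genes, while Pcna and Top2a overlapped. The list had a summed level of 198.6 to 223.7 FPKM with CBR-5884 against 228.7 to 262.6 with solvent. Most of that sum was Pcna, at 178.8 to 208.2 FPKM over all libraries. Of 6 monocyte markers only Ccr2 was tested, and it fell (limma, adjusted p = 0.0396), the list's sum being 4.22 to 4.88 against 8.93 to 10.2. Fibroblast and stroma markers summed to 10.8 to 17.1 against 17.9 to 18.9, neutrophil markers to 10.3 to 13.4 against 10.5 to 21.5, and dendritic cell markers to 328 to 433 against 425 to 426. The dendritic cell sum was nearly all Itgax, at 327.7 to 432 FPKM. The other members, Flt3, Zbtb46, Cd209a, Xcr1, Siglech and Dpp4, had means of 0.669 FPKM or less. The T and B cell, mast cell and erythroid lists stayed under 0.6 FPKM in sum in every library. The part of these markers in the carrier values was not tested.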

How the data were processed

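Per the submitters' processing notes, reads were handled with Bowtie2, TopHat2 and Cufflinks on mm10 (GRCm38). Their versions, the annotation release and strandedness were not given in the sources used here. The deposited files give 1 FPKM estimate per reference or assembled transcript and library, made by the authors, with no read counts. Here FPKM was summed per gene of GENCODE M21. Reference transcripts were matched by ID. Assembled transcripts of at least 200 nt were assigned where at least 50% of their exonic bases lay in the exons of a gene on the same strand (bedtools 2.31.1).

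Genes with a mean of at least 1 FPKM were compared on log2(FPKM + 1) with limma 3.58.1 (variance trend, 3 CBR-5884 against 2 solvent libraries, Benjamini-Hochberg over all tested genes, threshold 0.05). Fold changes are on that scale and so are too small for low genes. The procedure was tested on simulated data with independent normal noise for each gene. That simulation held no differences in transcript assembly, so it cannot show their effect on the fit. Near-identical copies were found with BLAST 2.17.0 (97% identity over 75 nt). Promoters came from RefSeq (GRCm38.p6). No protein sequence was used here.

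Carriers were named with their level. Values per library are given for the 12 with the smallest p, the 8 most abundant and those at 0 in 1 group only. Also named were Ucp2, Mpc1, Mpc2, Mtch1, Mtch2 and, in each of 9 neighbouring lists, the 2 smallest p. The 9 marker lists are given by counts and sums. The carriers and lists were chosen with earlier results of these data known. Another 18 settings were listed at the start, and 3 were added after seeing the data. Values of some genes that stay in the counts, and 1 further family member, are not reported here.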

Additional observations from a re-analysis of the deposited data

How the results depend on the processing

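Depth is known only as an implied fragment number, each group had 3 or 2 libraries, and FPKM sums depend on how Cufflinks split each gene. Over 21 alternatives, no carrier passed the limma threshold, except Slc25a51 without solvent replicate 3. The carriers' median log2 fold change, -0.08, was -0.115 for genes with a mean of at least 5 FPKM, -0.062 without a filter, -0.045 on a TPM scale, -0.039 with median ratios, -0.043 with quantile normalization, -0.049 with reference transcripts only, -0.03 with the most abundant reference transcript, -0.054 without single-exon assembled fragments, with or without locus assignment, and -0.109 to -0.064 when 1 library was left out. The same settings moved the count of all genes called, 24, to 9 with the mean of at least 5, 38 without a filter, 39 with reference transcripts only, 38 without single-exon fragments and 19 to 89 with 1 library left out (89 without solvent replicate 3, 66 without solvent replicate 5). The median log2 fold change over all genes tested, -0.031, was 0.008 on the TPM scale, 0.004 with median ratios and 0.014 with quantile normalization. It was -0.037 with reference transcripts only and -0.034 with the most abundant reference transcript. With a replicate block, 3 genes and 0 carriers were called and the carriers' median was -0.08. The labels do not say that shared numbers pair samples. Same-numbered deviations from the group means correlated at 0.07 and 0.082. With 2 solvent libraries their deviations mirror each other, so these values are not independent and cannot decide on pairing. Of 680 carrier values under these alternatives 43 had the opposite sign, in 17 of 33 carriers; the cause was not tested. Slc25a11 was 0.003 on the TPM scale and 0.001 with quantile normalization. With reference transcripts only, Slc25a14 was -1.18, Slc25a16 -0.034, Slc25a20 0.20, Slc25a22 0.073, Slc25a24 -0.03, Slc25a28 0.55, Slc25a35 -0.25, Slc25a37 0.47 and Slc25a51 0.63. With the most abundant reference transcript those 9 were the same except Slc25a35 (-0.087), and Slc25a3 was 0.027, Slc25a40 0.23 and Slc25a44 0.15. With the replicate block Slc25a1 was -0.03, Slc25a15 0.002 and Slc25a24 -0.001. Without single-exon fragments, with or without locus assignment, Slc25a37 was 0.20, Slc25a40 0.14 and Slc25a53 -0.053. With 1 library left out the ranges were -0.24 to 0.62 for Slc25a36, -0.34 to 0.60 for Slc25a53, -0.044 to 0.062 for Slc25a1, -0.108 to 0.002 for Slc25a15, -0.001 to 0.095 for Slc25a24, -0.086 to 0.005 for Slc25a11, -0.163 to 0.036 for Slc25a40, -0.232 to 0.002 for Slc25a20 and -0.32 to 0.041 for Slc25a37.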
